A study of Homo sapiens with 8 samples.

Results

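The TSC22 domain family was examined in A549 cells, an established epithelial line derived from a human lung adenocarcinoma. Its members were taken by gene symbol and are TSC22D1, TSC22D2, TSC22D3 and TSC22D4, which are 4 of the 19158 genes measured. All cells were wild type by their label. One group was left untreated, and the other received 1 µM dexamethasone, a glucocorticoid drug and agonist of the receptor NR3C1, for 48 h. Each group had 4 libraries, one per culture well, numbered 1, 3, 4 and 5 in both groups. The labels do not say whether the wells came from separate passages, so p-values measure the spread between these wells.

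Family members share the TSC box and a leucine zipper, through which the proteins form homodimers and heterodimers. TSC22D3 encodes the glucocorticoid-induced leucine zipper GILZ, a small protein that binds NF-κB and AP-1 and is one of the classical transcripts induced by glucocorticoids. TSC22D1, first described as a transcript stimulated by transforming growth factor beta, and TSC22D4, also named THG-1, can pair with each other. TSC22D1, TSC22D2 and TSC22D4 also have long forms that work with the pseudokinase NRBP1 and WNK kinases in the control of cell volume.

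Values were read as FPKM, a fragment number per kilobase of transcript and per unit of library size. The epithelial markers EPCAM, KRT8, KRT18, KRT19 and CDH1 together reached 1912 to 3459 FPKM in untreated and 2578 to 3312 FPKM in dexamethasone libraries. KRT8 and KRT18 carried these sums, and EPCAM did not exceed 0.765 FPKM in any library. KRT19 lay between 131.5 and 200.4 FPKM without and between 43.97 and 64.17 FPKM with dexamethasone, and CDH1 between 4.90 and 8.52 FPKM and between 16.7 and 19.7 FPKM. Markers of fibroblasts, leukocytes and endothelial cells summed to at most 3.46 FPKM per list. Alveolar type II markers summed to at most 28.5 FPKM, nearly all of it ABCA3, with SFTPA1 at 0 in all 8 libraries. Steps between low values corresponded to 24980000 to 28650000 fragments per library, or a whole multiple of that. Both libraries numbered 5 stood apart from their groups in GC content. In untreated replicate 5, GC-rich genes exceeded GC-poor genes by 0.91 (median log2 deviation from the group mean, top against bottom quintile of GC content), and in dexamethasone replicate 5 by 0.55. In the other libraries this difference lay between -0.38 and -0.00483.

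TSC22D3 (ENSG00000157514) lies on the minus strand of chromosome X, from 107713221 to 107777342 (GRCh38). RefSeq (GRCh38.p14) lists 4 start sites for it, a distal pair and a proximal pair, and the proximal ones start the short GILZ transcripts. The bases before 2 of these starts are shown because TSC22D3 carries the large change described below. Motifs were searched on both strands: the FOXO element TGTTTAC, the cAMP response core TGACG, the TATA box TATAAA and the receptor hexamer AGAACA. Capitals mark every match.
Proximal start, chrX:107717063-107717312, minus strand: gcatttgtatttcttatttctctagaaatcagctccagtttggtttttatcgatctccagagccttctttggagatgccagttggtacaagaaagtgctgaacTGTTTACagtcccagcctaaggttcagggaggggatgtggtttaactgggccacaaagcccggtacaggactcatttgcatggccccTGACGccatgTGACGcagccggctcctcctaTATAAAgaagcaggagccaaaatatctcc
Distal start, chrX:107775989-107776238, minus strand: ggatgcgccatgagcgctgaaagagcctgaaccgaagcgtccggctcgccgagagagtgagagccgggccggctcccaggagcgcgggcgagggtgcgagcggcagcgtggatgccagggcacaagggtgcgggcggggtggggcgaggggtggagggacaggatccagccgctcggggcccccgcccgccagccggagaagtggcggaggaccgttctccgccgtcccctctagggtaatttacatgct

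The proximal promoter held a FOXO element at positions -147 to -141 from the start, a pair of TGACG cores at -60 and -50, and a TATA box from -29 to -24. The printed distal promoter held none of these letters. Its GC content was 71.2%, against 48.0% in the printed proximal one. The starts not printed differed from these. The other proximal promoter had a GC content of 68.4% and no FOXO element or TATA box. Its entry held TGACG, read on the opposite strand, across the start, from -1 to 3. The other distal promoter held TGACG, read on the opposite strand, at -123. Among all 35116 RefSeq promoter entries, all of equal length, the FOXO element occurred in 3.42%, TGACG in 24.6%, the TATA box in 11.5% and AGAACA in 14.8%. Those rates cover each whole entry, which extends past its start beyond the 250 upstream bases printed here. Of the 10 entries for the family (5 for TSC22D1, 4 for TSC22D3 and 1 for TSC22D4), only the proximal one of TSC22D3 shown here held the FOXO element. TSC22D2 had no entry. A match to these letters is a description of the sequence and not a measured binding site.

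The full receptor element, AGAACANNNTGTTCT, reads the same on both strands and has 12 fixed letters. It had no exact match in or within 20 kb of any member, and 566 exact matches in the whole genome. With 1 of the 12 letters allowed to differ, the 104.1 kb around TSC22D3 held 5 matches. Among genome windows of that length 39.1% held at least 1 match, and 0.0506% held at least 5. The corresponding regions held 1 match at TSC22D1, 0 at TSC22D2 and 0 at TSC22D4, where 57.1%, 37.2% and 23.6% of windows of equal length held at least 1. The margin of 20 kb and the allowance of 1 letter were chosen with the response of TSC22D3 known. The TSC22D3 matches are printed with 15 flanking bases on each side, on the minus strand, with the element in capitals, in the order in which the gene is read.
Upstream of the gene, chrX:107793849-107793893: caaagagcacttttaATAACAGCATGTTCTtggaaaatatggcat
Intron A, chrX:107767829-107767873: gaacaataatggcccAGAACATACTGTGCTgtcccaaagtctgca
Intron B, chrX:107744623-107744667: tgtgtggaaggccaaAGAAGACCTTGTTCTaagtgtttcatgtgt
Intron C, chrX:107744251-107744295: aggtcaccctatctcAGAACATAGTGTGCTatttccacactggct
Downstream of the gene, chrX:107699224-107699268: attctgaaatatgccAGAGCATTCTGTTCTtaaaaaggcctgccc

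The upstream match lay 17876 bases before the outermost RefSeq start, within the span of the neighbouring gene NCBP2L. Intronic matches B and C lay 27576 and 27204 bases before the proximal GILZ start. No matches fell within 5 kb upstream of a TSC22D3 start. Across all RefSeq starts, 2.19% had such a match in the 5 kb before them.

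**Figure D1:**
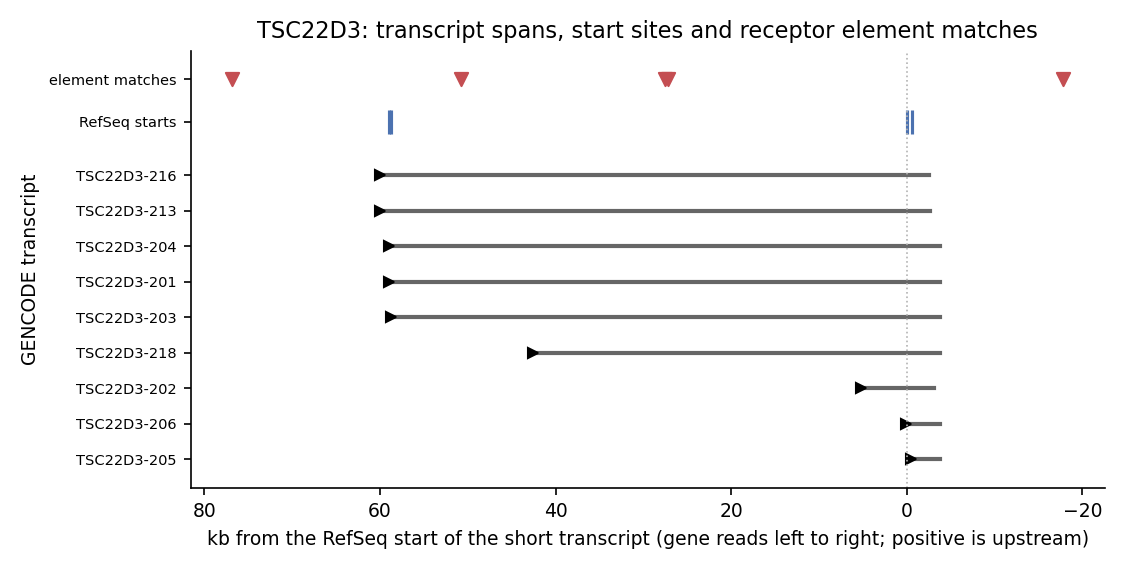
Map of TSC22D3 with distance in kb from the proximal RefSeq start on the x axis and one row for each GENCODE v44 basic transcript; arrowheads mark transcript starts, ticks the 4 RefSeq starts and triangles the 5 receptor element matches with 1 letter different. The RefSeq starts form a distal and a proximal pair, and 3 of the 5 matches lie in introns between these pairs.

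TSC22D3 rose most in the family. Its level was 7.07, 4.48, 6.71 and 6.23 FPKM in untreated replicates 1, 3, 4 and 5. After dexamethasone it was 108.1, 111.2, 99.4 and 91.8 FPKM in replicates 1, 3, 4 and 5. Every dexamethasone library lay above every untreated one, with a wide gap between the groups. The means were 6.12 ± 1.15 and 102.6 ± 8.78 FPKM (SD, n = 4 each), a ratio of 16.8. On the log2(FPKM + 1) scale the difference was 3.87 (SE 0.17, 95% interval 3.50 to 4.24, limma adjusted p = 4.68e-07). By size of rise TSC22D3 ranked 11 of the 12161 genes tested. By level it moved from rank 7014 among untreated cells, a middling position, to rank 487 after dexamethasone, within the top 4.0% of tested genes. NCBP2L, which overlaps its distal end on the opposite strand, had 0 in every untreated library and no more than 0.027 FPKM after dexamethasone. Whether the counting used strand is not given in the sources used here, so reads of overlapping genes on opposite strands cannot be told apart.

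TSC22D1 did not pass the test. Its FPKM was 20.4, 27.3, 22.3 and 19.5 in untreated and 23.9, 23.5, 24.7 and 18.2 in dexamethasone replicates 1, 3, 4 and 5. The groups overlapped, with the lowest value in dexamethasone replicate 5 and the highest in untreated replicate 3. Means were 22.4 ± 3.48 and 22.6 ± 2.93 FPKM (SD, n = 4 each). The log2 difference was 0.01 (SE 0.13, limma adjusted p = 0.954), with a 95% interval of -0.27 to 0.30. Its sign turned with the trend on GC content removed (-0.019) and without untreated replicate 1 (-0.041) or 4 (-0.022) or dexamethasone replicate 1 (-0.00205), 3 (-0.014) or 4 (-0.020). TSC22D1 (ENSG00000102804, chromosome 13, 44432143 to 44577147, minus strand) has 4 basic transcripts in GENCODE v44, long and short, which a gene-level value does not separate. On the opposite strand a transcribed processed pseudogene overlaps its span by 27865 bases, TSC22D1-AS1 by 1255 and a further entry by 535. None of these is among the genes measured.

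TSC22D4 rose. It measured 12.4, 15.4, 13.8 and 16.1 FPKM in untreated replicates 1, 3, 4 and 5, against 18.8, 21.0, 23.9 and 27.8 FPKM in the same-numbered dexamethasone libraries. The groups did not overlap, and in each of them replicate 5 was the highest. The means of 14.4 ± 1.65 and 22.9 ± 3.88 FPKM (SD, n = 4 each) gave a ratio of 1.58. The log2 difference was 0.62 (SE 0.19, limma adjusted p = 0.0402). This call lay close to the threshold. It was lost without untreated replicate 1, 3 or 4 (log2 differences 0.54, 0.61 and 0.56) and without dexamethasone replicate 3, 4 or 5 (0.65, 0.60 and 0.49), with adjusted p of 0.0706 to 0.108. TSC22D4 (ENSG00000166925, chromosome 7, 100463359 to 100479279, minus strand) is GC-rich: 97.5% of tested genes had a lower GC content than its 65.8%. With the trend of each library on GC content removed the difference was 0.92 (limma adjusted p = 7.49e-05). C7orf61, which overlaps TSC22D4 on the same strand, did not exceed 0.324 FPKM in any library.

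TSC22D2 also rose, with overlapping groups. Its level was 6.72, 8.14, 7.42 and 2.47 FPKM in untreated replicates 1, 3, 4 and 5. It was 13.2, 13.1, 11.6 and 7.20 FPKM in dexamethasone replicates 1, 3, 4 and 5. Replicate 5 was the lowest library of each group, and dexamethasone replicate 5 fell inside the untreated range. Means were 6.19 ± 2.55 and 11.3 ± 2.82 FPKM (SD, n = 4 each), a ratio of 1.82. The log2 difference was 0.84 (SE 0.26, limma adjusted p = 0.0368). Without both libraries numbered 5 it was 0.74 (limma adjusted p = 0.000559). The call was lost without untreated replicate 1 (0.89) or dexamethasone replicate 1, 3 or 4 (0.77, 0.76 and 0.83), at adjusted p of 0.0614 to 0.107, and without scaling between libraries (0.83, adjusted p = 0.0933). TSC22D2 (ENSG00000196428, chromosome 3, 150408335 to 150466431, plus strand) had a GC content of 44.2%, above that of 35.7% of tested genes.

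Thus 3 of the 4 members were called higher and none lower, where 12.4% of all tested genes were called higher and 14.3% lower. Groups stood apart in the higher direction for TSC22D3 and TSC22D4, as for 12.3% of tested genes, while 19.2% stood apart in the lower direction and 31.5% in either. With all filters on low values lifted, TSC22D2 and TSC22D4 fell short of the threshold (adjusted p = 0.0591 and 0.0569). TSC22D3 was called under every setting and library omission tried, at log2 differences of 3.71 to 4.06.

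**Figure D2:**
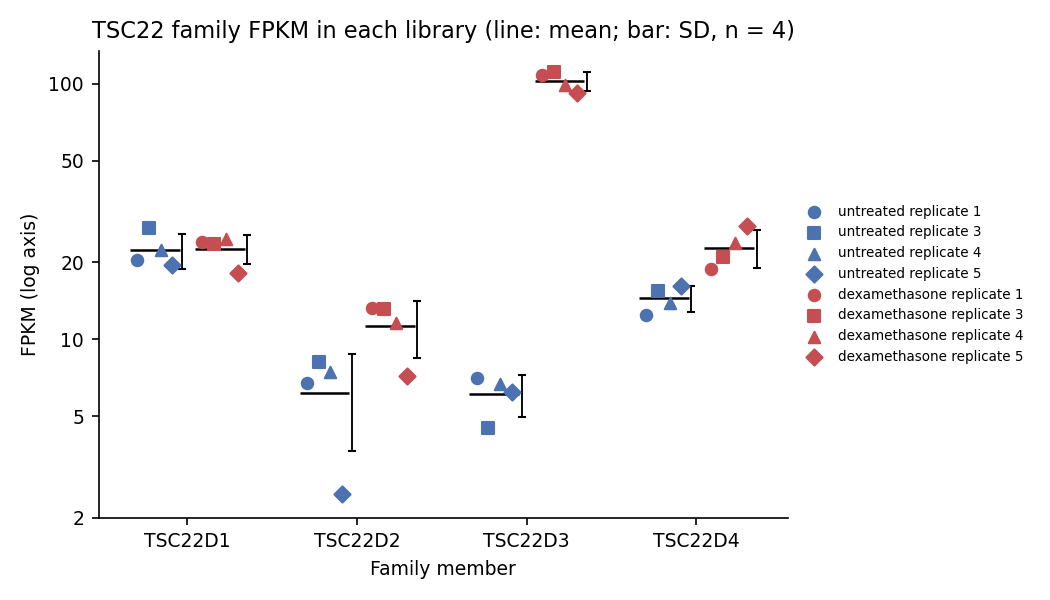
FPKM of each family member on a log axis, with one point per library, a line at the mean and a bar for the SD (n = 4). TSC22D3 sits between 4.48 and 7.07 FPKM in untreated and between 91.8 and 111.2 FPKM in dexamethasone libraries, while the groups of TSC22D1 overlap.

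**Figure D3:**
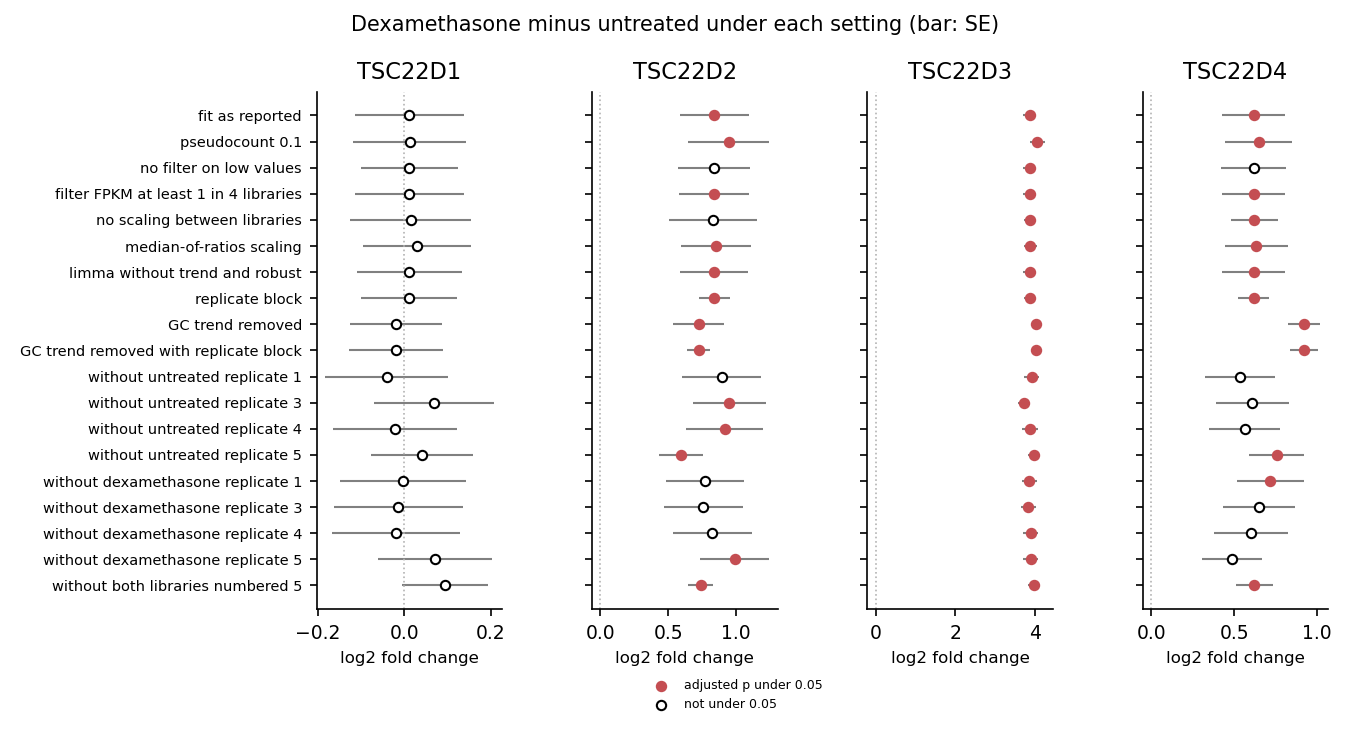
Log2 difference (dexamethasone minus untreated, bar: SE) of each member for every setting, filled where the limma adjusted p was under 0.05. TSC22D3 is filled throughout, TSC22D1 nowhere, and TSC22D2 and TSC22D4 move across the threshold.

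The order of the members by FPKM changed with treatment. In all 4 untreated libraries TSC22D1 came first and TSC22D4 second, without overlap between them. TSC22D2 and TSC22D3 shared the lowest places: TSC22D3 was the lower in replicates 3 and 4 and TSC22D2 in replicates 1 and 5. In all 4 dexamethasone libraries TSC22D3 came first and TSC22D2 last. TSC22D1 and TSC22D4 overlapped there, with TSC22D4 above TSC22D1 in replicate 5 only. These levels are per length as deposited, and the transcript lengths behind them are not given in the sources used here.

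Summed FPKM of the family was 46.7, 55.3, 50.3 and 44.3 in untreated and 164.1, 168.8, 159.5 and 145.0 in dexamethasone replicates 1, 3, 4 and 5. The mean total was 49.1 ± 4.81 FPKM without and 159.4 ± 10.3 FPKM with dexamethasone (SD, n = 4 each), a ratio of 3.24. TSC22D3 accounted for 87.5% of this increase in the mean, TSC22D4 for 7.64%, TSC22D2 for 4.62% and TSC22D1 for 0.186%. Without TSC22D3 the other three members together went from 43.0 ± 5.72 to 56.7 ± 2.90 FPKM (SD, n = 4 each).

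The share of TSC22D3 in the family total was 15.2%, 8.09%, 13.3% and 14.1% in untreated replicates 1, 3, 4 and 5. It was 65.9%, 65.9%, 62.3% and 63.3% in the dexamethasone libraries of the same numbers. A minor transcript of the family in untreated cells, it held the majority of the family FPKM in every treated library. The means were 12.7% ± 3.14 and 64.3% ± 1.83 (SD, n = 4 each).

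The share of TSC22D1 went from 45.4% ± 2.64 to 14.1% ± 1.21, although its FPKM did not differ beyond the spread. That of TSC22D4 went from 29.6% ± 4.55 to 14.5% ± 3.44, and its FPKM was called higher. For both genes the shares of the groups did not overlap. The share of TSC22D2 was 12.4% ± 4.53 in untreated and 7.02% ± 1.41 in dexamethasone libraries (SD, n = 4 each), and its groups overlapped through untreated replicate 5, at 5.57%. The ratio of TSC22D3 to TSC22D1 in FPKM went from 0.283 ± 0.0811 to 4.58 ± 0.42 (SD, n = 4 each). Shares were described and not tested, because they combine the members.

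**Figure D4:**
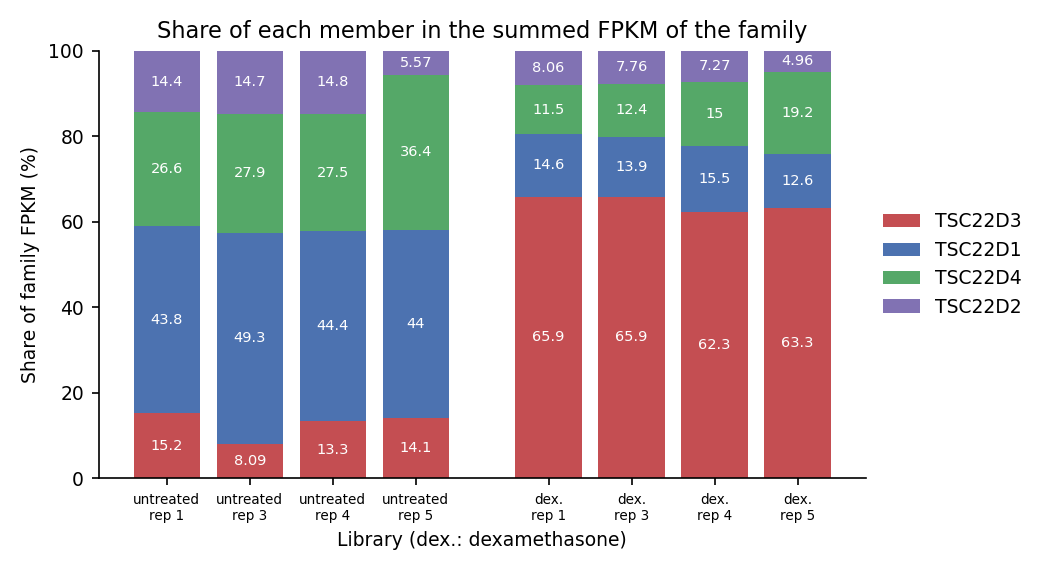
Stacked bars of each member's share (%) of the summed family FPKM, one bar per library with its value printed inside. TSC22D3 makes up 8.09% to 15.2% of the untreated bars and 62.3% to 65.9% of the dexamethasone bars.

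FPKM was also weighted by the longest annotated transcript (11182 bases for TSC22D2, 5961 for TSC22D1, 2318 for TSC22D4 and 2269 for TSC22D3). This approximates shares of fragments only if similar lengths were behind the deposited values, and those lengths are not given in the sources used here. On that scale TSC22D3 went from 5.76% ± 1.69 to 42.7% ± 1.92, and TSC22D1 from 53.7% ± 4.29 to 24.6% ± 1.26 (SD, n = 4 each). TSC22D4 went from 13.8% ± 3.56 to 9.92% ± 2.87, with overlapping groups. TSC22D2 was at 26.8% ± 8.44 and 22.8% ± 3.71, also with overlapping groups. Its place thus depended on the scale: by weighted share it came second in untreated replicates 1, 3 and 4, and TSC22D4 came last in all 4 dexamethasone libraries.

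The members were unevenly related across libraries. Over the 8 libraries Pearson's r on the log2 scale was 0.77 between TSC22D3 and TSC22D4, 0.72 between TSC22D3 and TSC22D2, and 0.21 between TSC22D2 and TSC22D4. For TSC22D1 it was 0.127 with TSC22D2, 0.0402 with TSC22D4 and 0.00821 with TSC22D3. These coefficients describe the libraries and carry the treatment contrast and the GC trend with them.

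Of the 11285 genes whose log2(FPKM + 1) averaged 1 or more, those most like TSC22D3 over the 8 libraries were PLPP1, a lipid phosphatase (r = 0.999), BCL6, a transcriptional repressor (0.998), TMEM63C (0.997) and ADAMTS7, a secreted metalloprotease (0.997). BCL6 ranged from 2.79 to 3.49 FPKM without and from 12.3 to 14.2 FPKM with dexamethasone. An r of 0.95 was reached by 349 genes for TSC22D3, 568 for TSC22D2 and 45 for TSC22D4, so the names given for each lead longer lists. TSC22D4 was most like CS (citrate synthase, 0.988), SYNGR3 (0.981), LENG9 (0.980) and FAM117A (0.979), all highest in dexamethasone replicate 5. TSC22D2 was most like NIPSNAP3A (0.995), ZNF585B (0.994), WDR47 (0.994) and UBXN4 (0.994), which were lowest in untreated replicate 5. No gene reached a positive r of 0.9 with TSC22D1, and TTC13 (0.896), OXNAD1 (0.882) and IL11RA (0.870) came nearest. An r at or below minus 0.9 was found for 3 genes with TSC22D1, 1412 with TSC22D2, 733 with TSC22D3 and 137 with TSC22D4.

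Genes known to control TSC22D3 transcription include steroid receptors and FOXO factors. Of 9 listed genes 6 were tested, of which 3 rose, none fell and 3 did not pass, where 26.7% of all tested genes passed in either direction. The median log2 difference over the 6 was 0.43, against 0.01 over all tested genes. The 3 that rose were FOXO1, FOXO3 and FOXO4. FOXO6, below the filter, lay at 0.376 to 0.669 FPKM without and at 0.143 to 0.210 FPKM with dexamethasone, without overlap. With no filter on low values 4 genes of the list were called, where 3592 of 16561 were called over all genes. That fit also tested listed genes that the filter had left out. FOXO1 measured 1.52, 1.78, 1.81 and 0.922 FPKM without dexamethasone (replicates 1, 3, 4 and 5) and 10.1, 7.6, 7.07 and 6.47 FPKM with it. Its groups were far apart, with a log2 difference of 1.82 (SE 0.14, limma adjusted p = 1.92e-05). FOXO3 measured 3.23, 3.74, 3.41 and 1.97 FPKM without and 12.5, 12.6, 11.3 and 9.50 FPKM with the drug, a log2 difference of 1.63 (SE 0.13, limma adjusted p = 1.96e-05). FOXO4 averaged 0.828 ± 0.112 FPKM without and 2.04 ± 0.239 FPKM with dexamethasone (SD, n = 4 each), and rose by 0.73 on the log2 scale (SE 0.12, limma adjusted p = 0.00146). All 3 kept their call under every setting tried.

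NR3C1 did not pass the test. This gene, the glucocorticoid receptor, averaged 18.1 ± 6.23 FPKM without and 20.7 ± 8.69 FPKM with dexamethasone (SD, n = 4 each, limma adjusted p = 0.802), and it was lowest in the libraries numbered 5. The mineralocorticoid receptor gene NR3C2 did not exceed 0.0335 FPKM in any library, and the progesterone receptor gene PGR was listed at 0 in all 8. CREB1, which binds cAMP response elements, was at 2.98 ± 0.455 and 3.32 ± 0.343 FPKM (SD, n = 4 each, limma adjusted p = 0.466).

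Proteins reported to bind or to be bound by GILZ were taken as the next list. All 10 genes were tested, of which 3 rose, 1 fell and 6 did not pass, so that 40.0% were called against 26.7% of all tested genes. The median log2 difference was -0.06. The transcription factor gene CEBPB averaged 51.4 ± 3.85 FPKM without and 154.5 ± 15.7 FPKM with dexamethasone (SD, n = 4 each). It rose by 1.56 on the log2 scale (SE 0.18, limma adjusted p = 0.000189). CEBPD, which encodes another C/EBP factor, rose by 1.096 (SE 0.19, limma adjusted p = 0.0024). The AP-1 subunits went opposite ways. FOS averaged 1.05 ± 0.342 FPKM without and 3.78 ± 0.34 FPKM with dexamethasone (SD, n = 4 each), and rose by 1.22 on the log2 scale (SE 0.17, limma adjusted p = 0.000673). JUN gave 17.8, 16.9, 16.3 and 13.3 FPKM without and 10.97, 12.37, 10.95 and 10.94 FPKM with dexamethasone, and the groups did not overlap. Its log2 difference was -0.47 (SE 0.11, limma adjusted p = 0.0119), and the call was lost with the GC trend removed (-0.27, adjusted p = 0.0875). RELA, the NF-κB subunit bound by GILZ, was at 30.7 ± 8.02 and 24.0 ± 7.57 FPKM (SD, n = 4 each, limma adjusted p = 0.391).

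The WNK and NRBP1 pathway carries the other known role of the family: WNK kinases activate OXSR1 and STK39 (SPAK), which phosphorylate cation-chloride cotransporters. Of 17 genes 14 were tested, of which 4 rose, 1 fell and 9 did not pass. The share called, 35.7%, lay near the 26.7% of all tested genes, and the median log2 difference was 0.24. STK39 gave 7.28, 8.30, 8.21 and 3.82 FPKM without dexamethasone (replicates 1, 3, 4 and 5) and 25.2, 23.4, 22.2 and 18.8 FPKM with it. The groups were well separated, with a log2 difference of 1.61 (SE 0.16, limma adjusted p = 8.75e-05). Its relative OXSR1 had a log2 difference of 0.55 (SE 0.18, limma adjusted p = 0.0499), a call lost under several settings, among them omission of untreated replicate 1 (0.56) or dexamethasone replicate 1, 3, 4 or 5 (0.51, 0.53, 0.58 and 0.58).

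NRBP2, the close relative of NRBP1, gave 4.28, 4.02, 3.85 and 4.56 FPKM without and 8.88, 9.20, 9.06 and 9.59 FPKM with dexamethasone, a narrow spread in both groups. Its log2 difference was 0.97 (SE 0.14, limma adjusted p = 0.000901). NRBP1 itself was the more abundant, at 58.0 ± 2.05 and 51.7 ± 4.37 FPKM (SD, n = 4 each, limma adjusted p = 0.44). The chloride cotransporter gene SLC12A7 (KCC4) averaged 14.6 ± 0.939 FPKM without and 9.29 ± 1.08 FPKM with dexamethasone (SD, n = 4 each), and fell by 0.61 on the log2 scale (limma adjusted p = 0.0202). That call was lost without dexamethasone replicate 1 (-0.57) or 4 (-0.54), and the difference was -0.36 with the GC trend removed. WNK1 was at 25.3 ± 7.35 and 30.3 ± 4.80 FPKM (SD, n = 4 each, limma adjusted p = 0.238), and WNK3 and WNK4 were too low to be tested. The number of called genes in the pathway was 3 without dexamethasone replicate 1 or 4, and 8 without both libraries numbered 5. Calls over all genes moved in the same direction. With all libraries 3251 of 12161 tested genes were called. Without dexamethasone replicate 1 or 4 it was 2380 of 12256 or 2317 of 12252, and without both libraries numbered 5 it was 5515 of 12236.

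TSC22D1 was set beside transforming growth factor beta signalling. All 8 listed genes were tested, of which 2 rose, 2 fell and 4 did not pass, beside 12.4% called higher and 14.3% called lower among all tested genes. The median log2 difference was 0.08. The ligand and an effector fell while both receptors rose. TGFB1, the ligand, gave 70.5, 70.5, 68.0 and 87.0 FPKM without dexamethasone (replicates 1, 3, 4 and 5) and 27.4, 30.4, 29.3 and 36.0 FPKM with it, a log2 difference of -1.24 (SE 0.20, limma adjusted p = 0.00139). TGFBR1 rose from 4.57 ± 2.90 to 15.2 ± 6.37 FPKM (SD, n = 4 each, limma adjusted p = 0.00563), and TGFBR2 from 41.8 ± 12.6 to 73.6 ± 9.01 FPKM (SD, n = 4 each, limma adjusted p = 0.00642). SMAD3, a receptor-activated transcription factor, averaged 126.4 ± 18.9 FPKM without and 42.7 ± 3.26 FPKM with dexamethasone (SD, n = 4 each), and fell by 1.54 on the log2 scale (SE 0.11, limma adjusted p = 1.36e-05). SMAD4, which binds TSC22D1, was at 6.56 ± 2.52 and 7.36 ± 1.51 FPKM (SD, n = 4 each, limma adjusted p = 0.52).

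**Figure D5:**
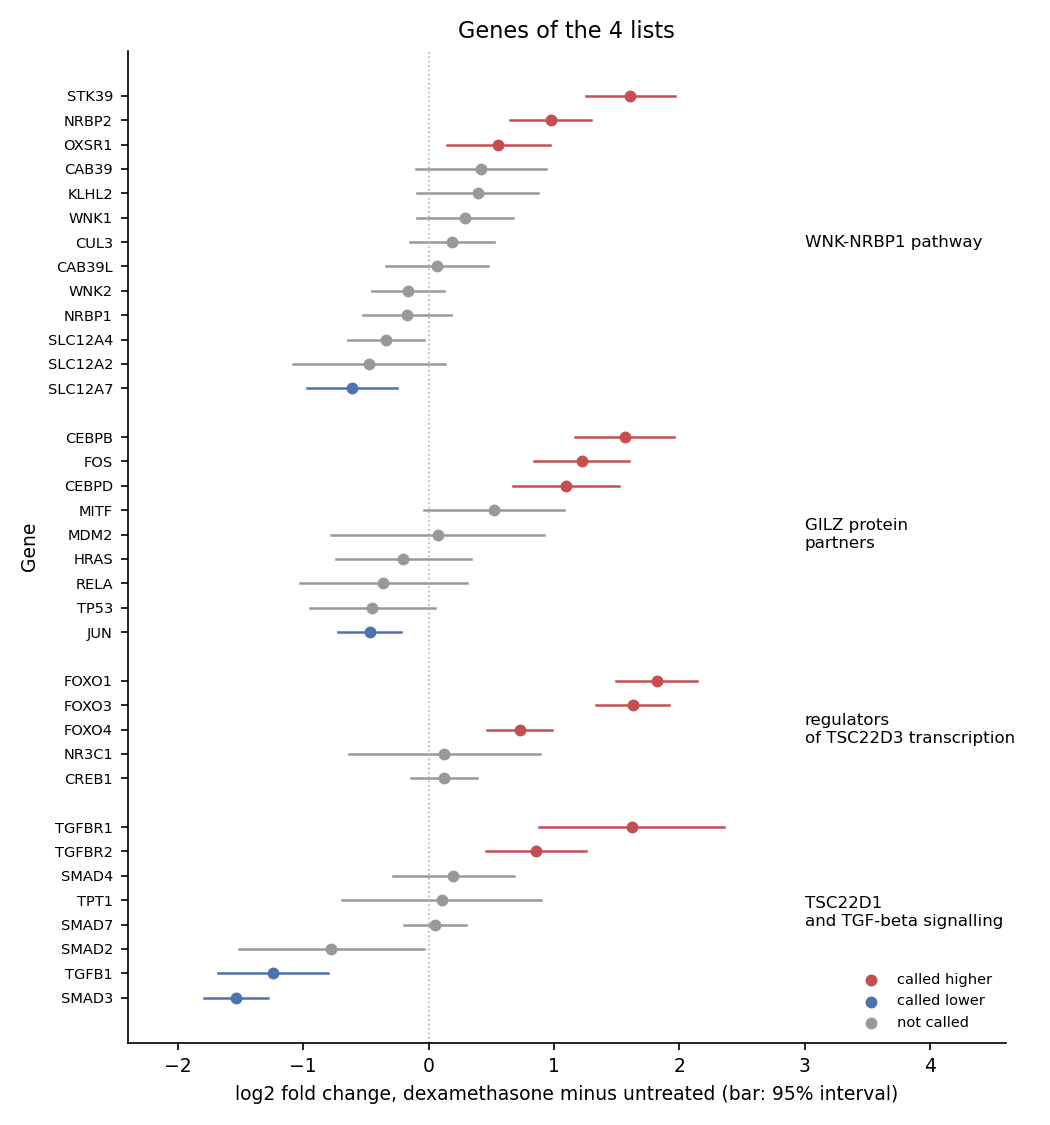
Log2 difference (dexamethasone minus untreated, bar: 95% interval from limma) of 35 tested genes of the 4 lists, red where called higher, blue where called lower and grey where not called; 3 other tested genes of the lists are not drawn. FOXO1 leads the regulators of TSC22D3 at 1.82, STK39 the WNK and NRBP1 pathway at 1.61, and SMAD3 is the lowest gene at -1.54.

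Genes beside the members on the chromosome were read from the same fit, within 250 kb. Of the 5 neighbours of TSC22D3, 2 were expressed enough to be tested. MID2, at a gap of 48.4 kb, went from 4.56 to 6.13 FPKM on average (log2 difference 0.37, limma adjusted p = 0.0411). PRPS1, at 35.2 kb on the other side, went from 41.3 to 30.7 FPKM (-0.42, limma adjusted p = 0.0425). Both differences are small beside that of TSC22D3, and both calls lay at the threshold. That of MID2 was lost without any single library other than untreated replicate 5 (0.31 to 0.40) and with the GC trend removed (0.19). That of PRPS1 was lost without untreated replicate 1 (-0.38) or 4 (-0.43) or dexamethasone replicate 1 (-0.40), 3 (-0.43) or 4 (-0.36). Around TSC22D4, 14 of 23 neighbours were tested, of which 2 were called higher, 5 lower and 7 not, where 12.4% of all tested genes were called higher and 14.3% lower. The nearest of these was NYAP1 at 4.65 kb, which rose from a low level of 0.673 to 1.98 FPKM (log2 difference 0.83, limma adjusted p = 0.000273). Around TSC22D2, 3 of 4 neighbours were tested and none passed. The 1 neighbour of TSC22D1, SERP2, was listed at 0 in all libraries.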

How the data were processed

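RNA from 8 wells of A549 cells, 4 per group, was depleted of ribosomal RNA and sequenced as paired ends, per the labels' protocols. Per the submitters' processing notes, reads were checked with FastQC 0.11.9, trimmed with Cutadapt 3.4, aligned to GRCh38 with STAR 2.7.9a and counted with featureCounts from Subread 2.0.3. Annotation release and strand setting are not given in the sources used here. All libraries carry the same batch label. The values the authors deposited, described as counts per the labels, were not whole numbers and were read here as FPKM per gene, with sums of 338989 to 373855 per library. The step that made them is not given in the sources used here. Depth was estimated from low values of genes with 1 annotated transcript, as the best fitting of many candidate fragment numbers. At that number 43.3% to 49.3% of these values lay within 0.1 of a whole fragment number. At the next best number farther away 23.6% to 29.0% did, where 20% is the rate by chance for a single fixed number. The fit was partial, so no count test was run.

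Libraries were put on one scale by trimmed means of log ratios (trim 0.3 and 0.05; factors 0.824 to 1.09) and tested as log2(FPKM + 1) with limma 3.58.1 in R 4.3.3 (trend and robust, two-sided, group as the only term), over the 12161 genes with at least 0.5 FPKM in at least 4 libraries (3 where libraries were left out). Fold changes on that scale understate those of low genes. Benjamini-Hochberg adjustment covered all tested genes, with calls at 0.05. The procedure was tested on simulated data with independent noise in each gene and library. Those data lacked the GC trend of the real libraries, so they cannot show how that trend affects the calls. Printed FPKM and shares are unscaled. GENCODE v44, whose coordinates for TSC22D1 and TSC22D3 equal those of the files, supplied strand, overlaps, GC content and transcript lengths, and 12130 tested genes had a GC value. Promoters are from RefSeq and element matches from the GRCh38 sequence.

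Members and gene lists were chosen with earlier results of these data known. Genes named are the members, the called genes of each list and genes the text needs for context, the tested neighbours of TSC22D3, and the 4 genes most like each member. Some genes that this rule or a list holds are not reported here by name, and the counts of the lists include them. The other settings tried were the pseudocount, the filter, the scaling, the variance model, GC content, a replicate block and omission of libraries.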

Additional observations from a re-analysis of the deposited data

Results flagged for a closer look

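For 82 sets of 4 values, the gap between the most extreme library and its nearest neighbour was divided by the full spread of the set. A library stood apart in 9 sets, where chance flags about 1 in 20. The sets were not independent: some genes were taken for their likeness to a member over these libraries, and shares are parts of one total. The number of flagged sets therefore cannot be weighed against that rate. For the family these were shares. Untreated replicate 3 had a TSC22D1 share of 49.3%, where the other untreated libraries had 43.8% to 44.4%. Untreated replicate 5 had a TSC22D2 share of 5.57%, where the others had 14.4% to 14.8%, and a TSC22D4 share of 36.4%, where the others had 26.6% to 27.9%.

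Among other genes untreated replicate 5 stood apart for NIPSNAP3A (2.15 FPKM, others 6.46 to 7.25), TGFBR2 (22.9 FPKM, others 46.82 to 48.96) and TGFB1 (87.0 FPKM, others 68.0 to 70.5). Dexamethasone replicate 5 stood apart for WDR47 (2.12 FPKM, others 3.13 to 3.29) and ZNF585B (2.31 FPKM, others 3.96 to 4.17). Dexamethasone replicate 3 stood apart for JUN, at 12.4 FPKM where the others had 10.94 to 10.97.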

How the results depend on the processing

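TSC22D3 kept its direction and call in all 18 alternatives. The log2 difference of TSC22D1 turned to -0.019 with the GC trend removed, with and without the replicate block, and ran from -0.041 to 0.072 when single libraries were left out. The call of TSC22D2 was lost with no filter on low values (0.84, limma adjusted p = 0.0591) and with no scaling (0.83), and that of TSC22D4 with no filter (0.62, adjusted p = 0.0569). Without single libraries TSC22D2 ran from 0.59 to 0.99 and TSC22D4 from 0.49 to 0.76. The cause was not tested. The count of called genes was 3251 as reported and 5515 without both libraries numbered 5. With the replicate block it was 5747, and with the block and the GC trend removed it was 5357. It ran from 2317 to 3846 without single libraries. The replicate block gave 9 called of 14 tested genes in the WNK and NRBP1 list, where it called 5747 of 12161 over all genes. That list had 5 called genes without the block and 3 to 6 without single libraries. Without both libraries numbered 5 it had 8, where 5515 of 12236 were called over all genes. In the list of GILZ partners the block gave 7 of 10 (4 without it, 7 with the GC trend removed as well). The difference in share of TSC22D1 was -34.2 points with the GC trend removed (-31.2 as reported). With length weighting that of TSC22D3 was 36.9 points (51.7 as reported) and that of TSC22D4 -3.87 points (-15.1 as reported). In the genes most like the members, small differences changed sign: TTC13 to -0.055 and IL11RA to 0.13 with the GC trend removed, and IL11RA to 0.20 without both libraries numbered 5. Without single libraries IL11RA ran from -0.162 to 0.0801.

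The labels give same-numbered libraries no shared source, and the numbers were not taken to pair them. Their deviations from the group means correlated at 0.29, 0.07, 0.31 and 0.71 for numbers 1, 3, 4 and 5, and untreated replicate 3 correlated more with dexamethasone replicate 1 (0.434) than with its own number.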
